A study of Mus musculus with 2 samples.

Results

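Tmem59l, the gene of transmembrane protein 59-like, was represented by 1 probe, found by its gene symbol in the annotation of changed mRNAs that accompanies the study, out of 60930 probes on each array besides the controls. Total RNA from the hippocampi of 3 male C57 mice (C57BL/6 in the study's methods) aged 16 to 18 months was pooled in each group. The surgery group had its left kidney removed under ketamine and xylazine, with ropivacaine at the wound, and the tissue was taken on day 3. Control mice were left untreated, so that anesthesia and nephrectomy cannot be told apart, and 1 array was hybridized with each pool. The study's methods describe a repeat of the array assay, but the deposited data hold no repeat of either array. No spread between mice can be had from a single pool per group, so the differences are given without a test. They have no replicate check on these arrays. The study measured some changed transcripts by qRT-PCR in pairs of mice, and Tmem59l was not among them. The gene was chosen because it was among the most strongly lowered mRNAs on these same arrays. The difference between both arrays is therefore given as a description, and it supports nothing by itself.

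Tmem59l encodes a membrane protein with a single transmembrane span that is made mainly by neurons and has also been named brain-specific membrane-anchored protein. It is the closest relative of Tmem59, a widely expressed protein of the Golgi apparatus and late endosomes. Both have been studied for the trafficking and glycosylation of the amyloid precursor protein (APP) and for autophagy and cell death.

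The gene lies on the minus strand of chromosome 8, from 70483855 to 70487348 in the RefSeq annotation of GRCm38.p6, which gives it 3 transcripts. The annotation of the array names the transcript NM_182991 and a length of 1491 bases for its RNA. The probe is placed at chr8:70483883-70484434, inside the gene. The annotation does not name its genome build. The probe has 60 bases and its placement spans 552, so that 492 bases between its ends are not part of it. Its last base lies 17 bases from the listed 3′ end of the transcript. The signal therefore reports RNA that holds this end of the transcript, and which of the 3 transcripts hold it was not tested.

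The probe is shown because every Tmem59l value rests on these bases, with the hexamer AATAAA, the DNA form of the common polyadenylation signal, in capitals.
Tmem59l probe, 5′ to 3′: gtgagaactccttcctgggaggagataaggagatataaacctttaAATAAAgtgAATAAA
The hexamer occurs 2 times without overlap and its reverse complement 0 times. Of the 1172 probes with a sequence in the same annotation, 109 (9.30%) hold it on either strand, and 6 (0.512%) hold it at least 2 times on the strand shown. GC content was 35% for the Tmem59l probe and 45% at the median of those probes. No cross-hybridizing transcript is listed for it, and 0 of the other probes with a sequence share a run of 15 bases with it.

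The Tmem59l spot was bright on the control array, with a processed signal of 56485, and dim by comparison after surgery, with 4344. Feature Extraction gives these signals errors of 5649 and 434, which cover the measurement of the spot only. It was well above background on both arrays, was not saturated, and was not marked as non-uniform or as an outlier on either. The brightest probe reached 323325 on the control array, so the Tmem59l signal was well inside the range of the scan. Among all 60930 probes it ranked 757 by brightness on the control array (the top 1.24%) and 5707 on the surgery array (the top 9.37%). These are ranks of spot brightness, which also depends on the probe, and not of RNA amount.

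The processed signal derives from the pixels of the same spot, so the pixel values are no separate check of it. The median pixel of the spot was 58020 for the control pool and 4240 for the surgery pool. Before normalization this gives a log2 ratio of surgery over control of -3.77. The background-subtracted mean was 57748 and 4602, a log2 ratio of -3.65. The local background around the spot was low on both arrays, at 24 and 22 by its median pixel, and was not marked as uneven. Over all spots the median of this background was 22 and 21.

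After quantile normalization of the log2 processed signals of all 61500 non-control spots, the log2 ratio of Tmem59l was -3.74 with a spot error of 0.20, or 13.4-fold lower after surgery. Well above background on each array were 44044 probes, termed detected, of which 858 (1.95%) were at least 2-fold lower and 647 (1.47%) at least 2-fold higher. Tmem59l, which was chosen from this contrast, is 1 of the former. The median log2 ratio of the detected probes was 0.04. Only uc012gtn.1, a transcript overlapping Cyp19a1, the gene of aromatase, had a lower ratio than Tmem59l among the detected probes with unmarked spots, at -11.23 with a spot error of 0.35. Its median pixel gave -9.36 before normalization. On the control array, Feature Extraction flagged uneven background around that spot. The next probe after Tmem59l has no name here and had a log2 ratio of -3.51, with 268 on the control array and 21.4 after surgery. Its spot lies in column 156 of 164. The next named one was uc011ysu.1, a transcript of the imprinted Rian locus, at -3.03 with signals of 2390 and 265. The probes that followed Tmem59l in this order were much dimmer on the control array than Tmem59l itself.

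Probes as bright as Tmem59l on the control array differed little between the arrays. Within 0.5 log2 units of its normalized control signal (41582 to 83164) lay 656 other detected probes, with a median log2 ratio of 0.02. Of these, 573 (87.3%) were within 0.25 log2 units of 0, and the range from the 1st to the 99th percentile was -0.72 to 0.28. Apart from Tmem59l, 1 of the 656 was at least 2-fold lower, again uc012gtn.1, and 0 were at least 2-fold higher. The next lowest was Gapdh, the glycolytic enzyme often used as a reference gene, whose log2 ratio was -0.98 (44727 in the control pool and 23720 in the surgery pool). The log2 ratio of Tmem59l minus the median of these probes was -3.76.

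**Figure D1:**
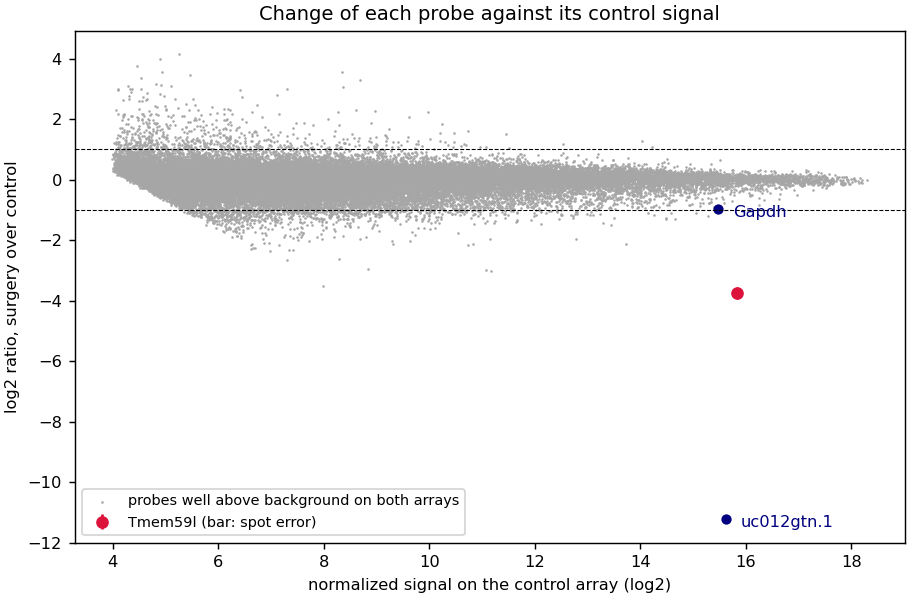
Log2 ratio of surgery over control (vertical axis) against the normalized log2 signal on the control array (horizontal axis) for the 44044 detected probes, in gray, with Tmem59l in red, Gapdh and uc012gtn.1 in blue, and dashed lines at 2-fold. The spot error of Tmem59l (0.20) is smaller than its symbol, and Tmem59l at -3.74 lies apart from the narrow band of the other bright probes.

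The same Tmem59l ratio was set against probes of like brightness on the surgery array, which is no separate check. Within 0.5 log2 units of the normalized surgery signal of Tmem59l (3115 to 6229) lay 2018 other detected probes, with a median log2 ratio of 0.06. The lowest ratio among them was -1.49, for ENSMUST00000121449, and 0 of them were as low as Tmem59l. In this window 13 (0.644%) were at least 2-fold lower. By normalized control signal, the share of detected probes at least 2-fold lower was 0 of 2837 below 30, 2.41% from 30 to 100, 2.64% from 100 to 300 and 0.252% at 30000 or more. Below 30 the filter on detection leaves little room for a lower surgery signal.

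The repeated probes show how far spots of 1 probe differ on the same pair of arrays. Of 30 probes with 20 spots each, 12 were well above background at every unmarked spot and had a control signal of at least 1000. The SD of the log2 ratio between the spots of a probe had a median of 0.05 among these 12 and a highest value of 0.06. Their mean log2 ratios lay between -0.36 and 0.15. Tmem59l has a single spot, so that the agreement between its own spots could not be measured.

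Spots around Tmem59l on the slide were not lowered with it. The spot lies in row 142 of 384 and column 141 of 164, with 23 columns between it and the right edge. Both arrays were read in the same scan. The 6 touching spots, at 36.1 to 37.6 µm, had control signals of 3.35 to 110, at most 0.194% of the Tmem59l signal, and surgery signals of 21.7 to 102. Their local backgrounds were 23 to 24.5 on the control array and 22 to 24 on the surgery array, and 0 of the 6 were marked. Of the 6, 5 were well above background on both arrays, with log2 ratios of 0.04 to 1.22, so that 0 were lower after surgery. None of the 6 carries a probe that could be named here.

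Within 10 rows and 5 columns on either side lay 166 detected probes, with a median log2 ratio of 0.12 and values from -1.31 to 2.42. Of these, 2 (1.20%) were at least 2-fold lower. Among the 22 of them with a normalized control signal of at least 5000, the lowest log2 ratio was -0.95 and the median was -0.09.

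**Figure D2:**
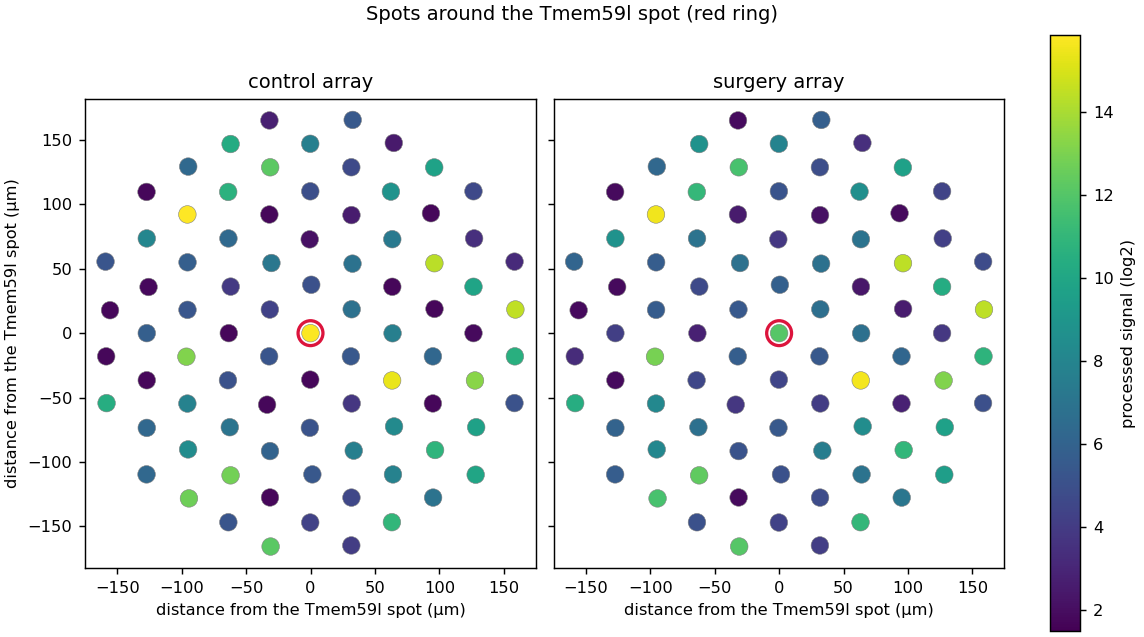
Spots within 180 µm of the Tmem59l spot (red ring) on the control array (left) and the surgery array (right), placed by their distance from it in µm and colored by log2 processed signal. The Tmem59l spot goes from 56485 to 4344, the touching spots stay between 3.35 and 110 on both arrays, and bright spots nearby remain bright.

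The size of the ratio depended somewhat on the scale of the values. In the normalized log2 values the authors deposited, Tmem59l stood at 14.67 in the control column and 10.41 in the surgery column, which is a log2 ratio of -4.26, or 19.2-fold lower. The same signals lie further apart on that scale also within 1 array. On the control array, 58 probes with processed signals like 56485 and 211 with signals like 4344 (each within 0.05 log2 units) had medians 4.31 apart in the deposited table, against 3.70 for the processed signals. On the surgery array the medians were 4.15 apart. With scaling to the 75th percentile the log2 ratio was -3.53, or 11.6-fold lower, and with the median pixel after quantile normalization it was -3.81.

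**Figure D3:**
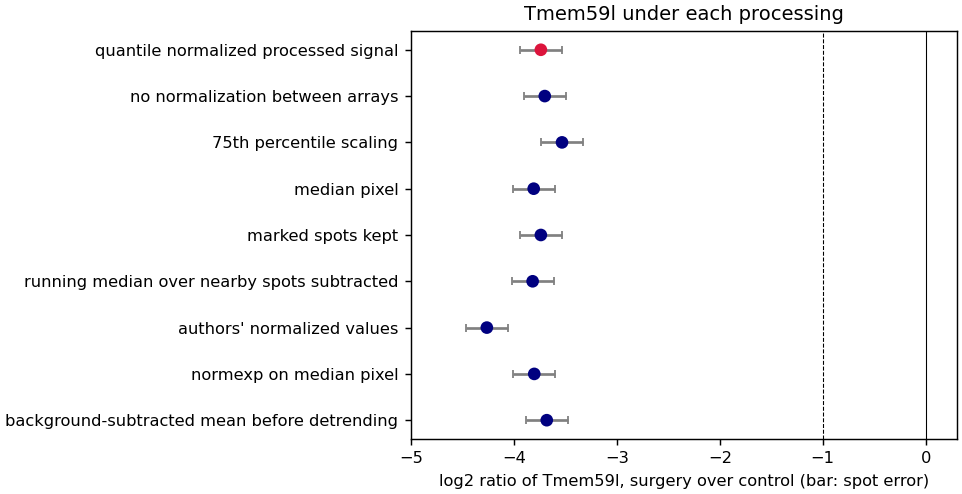
Log2 ratio of Tmem59l, surgery over control (horizontal axis), under each processing, with the main one in red. Bars are the combined spot error of the processed signals (0.20), drawn alike for each processing, the solid line is no difference and the dashed line is 2-fold lower. The values run from -4.26 to -3.53.

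No other detected probe lay within 1 log2 unit of the pattern of Tmem59l. Likeness was measured as the distance from Tmem59l in the normalized log2 signals of both arrays, which are 2 values per probe. The nearest detected probe was ENSMUST00000108464, at a distance of 1.71 log2 units, with signals of 25001 and 10470. Sept7, a septin of the cytoskeleton, followed at 1.73 with 22444 and 9360, and Gpm6b, a proteolipid of the membranes of neurons and glia, at 1.76 with 22497 and 9734. The lncRNAs NR_045328 and NR_004447 were at 1.87 and 2.02. Each of the 5 lay more than 1 log2 unit away and had a log2 ratio between -1.32 and -0.89, far from that of Tmem59l. In between lay 3 probes with no name. Names exist for 1172 probes (1.92%), those listed as changed on these arrays and held in the copy used here.

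**Figure D4:**
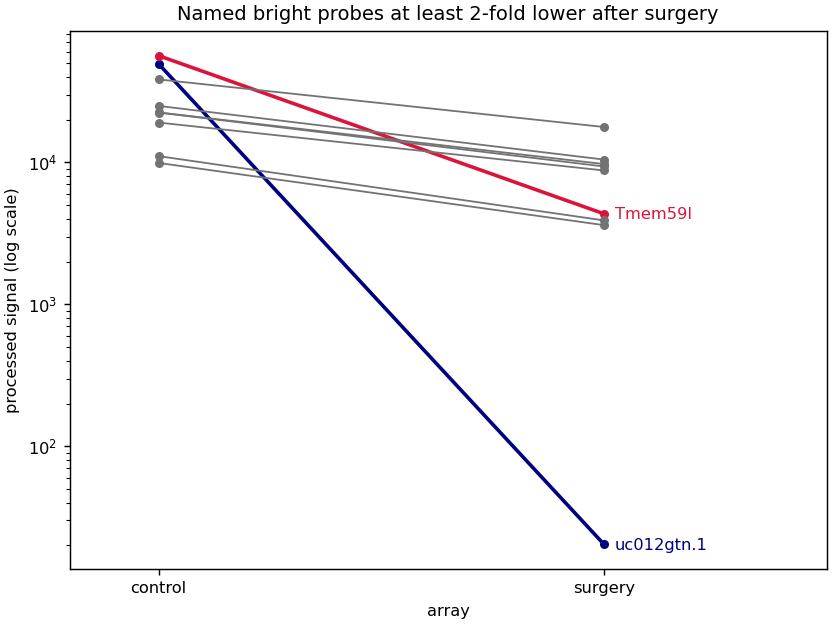
Processed signal on a log scale (vertical axis) on the control and surgery arrays for the 9 named probes with a normalized control signal of at least 10000 that were at least 2-fold lower after surgery. Lines join the values of a probe, with Tmem59l in red (56485 and 4344), uc012gtn.1 in blue (49381 and 20.4) and the other 7 in gray.

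Of the genes that bear on what Tmem59l is known for, few have a probe that could be named. This holds for 1 of 35 genes of APP processing and trafficking, 0 of 17 of autophagy and 1 of 19 of Golgi glycosylation, and Tmem59 itself is not named. Rtn3, a reticulon that binds the APP-cleaving protease BACE1, was at 173 in control and 43.4 after surgery, and its log2 ratio was -1.85 (spot error 0.25). With the median pixel before normalization it was -1.19. St3gal1, a Golgi sialyltransferase, was at 45.5 in control and 127 after surgery. Its log2 ratio was 1.62 (spot error 0.24), or 0.91 with the median pixel before normalization. The median pixel has no background subtracted, which shrinks the ratios of dim spots, here and for the dim probes below. Both were named because they are listed as changed, so that these counts say nothing about the lists.

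Among annotated transcripts within 1 Mb of Tmem59l, 2 have a name, both noncoding. Only probes listed as changed can be named, so neighbours that did not change cannot appear here. The mRNA part of the list used here is shortened, so changed coding neighbours may be missing as well. ENSMUST00000144766, of the locus of Fkbp8, a chaperone that binds Bcl2, begins 40.4 kb away on the plus strand (70527761 to 70532453). Its signal was 501 in control and 185 after surgery, and its log2 ratio -1.28 (spot error 0.21). The transcript uc012gen.2, of the locus of the zinc finger gene Zfp869, lies 767 kb away on the minus strand (69705136 to 69716902). Its signal was 950 in control and 396 after surgery, and its log2 ratio -1.11 (spot error 0.20). The copy of the annotation used here links 0 noncoding transcripts to Tmem59l itself.

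The tissue could be checked against few defining markers, since 4 of 50 marker genes for neurons and other cell types have a named probe. Of 20 neuronal markers this was Camk2a, the kinase of excitatory synapses, at 48.5 in control and 111 after surgery. Its log2 ratio was 1.35 (spot error 0.24), or 0.67 with the median pixel before normalization. The Camk2a spot was dim in control, where the median signal of all spots was 98.8, against 89.7 after surgery. Which Camk2a transcripts this probe reports was not tested, so its ratio does not measure neuronal RNA. Of 6 markers of the meninges, Foxc1, Foxc2 and Ptgds were named, and their summed signal was 20591 in the control pool and 52845 in the surgery pool. Their log2 ratios were 1.04, 2.22 and 1.28. Most of the sums came from Ptgds, at 16530 in control and 42242 after surgery, and the Foxc2 spot lies in column 156, among the last 14. Spot brightness also depends on the probe, so the sums do not measure an amount of tissue. The meningeal markers and Camk2a were named because they are listed as changed. Their values therefore say nothing about the markers without a name. The part of tissue composition in the Tmem59l value was not tested. In pooled tissue, fewer cells of a type and less RNA per cell cannot be told apart.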

How the data were processed

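The arrays were 1-colour Arraystar mouse lncRNA microarrays V3.0, labeled by random priming and read by the authors with Agilent Feature Extraction 11.0.1.1. In the deposited files, Feature Extraction had subtracted background from the intensities and detrended them array by array, without any scaling between arrays. The authors also deposited a table of log2 values, which they had quantile normalized with GeneSpring GX.

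Log2 processed signals of 61500 non-control spots were quantile normalized, spots of 30 repeated probes were averaged, and 50 probes whose spots were all marked were left out. Kept were 44044 probes that each array reported as positive, significant and well above background. The relative spot errors were added in quadrature and divided by the natural log of 2. With 1 array per group no test was run, and precision is limited by the number of arrays. The arithmetic was tested on simulated data with measurement noise only and no spread between mice, where 100% of 200 probes changed 4-fold among 44044 passed 2-fold.

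Names come from the supplementary annotation of changed probes, of which the mRNA part is shortened. Named genes were fixed by rule: family, lists and loci of Tmem59l, the 5 named probes nearest to it by signal, named probes next to it in the order of ratios (the nearest are given), and touching spots. From the marker lists 1 gene was left out and is not reported here. The gene and the lists were chosen with earlier results of these data known. Python 3.11.15 (numpy 2.4.6, pandas 2.3.3, matplotlib 3.10.9) and R 4.3.3 with limma 3.58.1 were used. Alternatives covered normalization, spot summary, background correction, marked spots, position on the slide and the filter on dim probes.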

Additional observations from a re-analysis of the deposited data

How the results depend on the processing

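The alternatives reuse the same spots for which Tmem59l was chosen, so likeness among them is no further support. Keeping marked spots could not move its ratio, since its spot was not marked. The log2 ratio of Tmem59l stayed negative and beyond 2-fold in each of 8 alternatives. It differed from the main value of -3.74 by more than the spot error in 2 of them, at -3.53 with scaling to the 75th percentile and at -4.26 in the values the authors deposited. Its difference from probes of like control signal was -3.76 and moved to -4.29 in the deposited values, and by less than the spot error in the other 9. Tmem59l had the 2nd lowest ratio except with marked spots kept, where it ranked 6, and with no filter on dim probes, where it ranked 21. The count of probes at least 2-fold lower was 858 and became 1483 without normalization between arrays, 243 with the median pixel, 2748 with no filter on dim probes, 285 among the brighter detected probes (those at or above the median signal) and 190 with normexp on the median pixel. The count at least 2-fold higher was 647 and became 210 with the median pixel, 2384 with no filter, 130 among these brighter probes, 320 without the last 14 columns and 174 with normexp. The filters and the left-out columns change the number of probes counted, and the causes of the moves were not tested. Without the last 14 columns, 40151 of the 44044 detected probes remained, 734 of them at least 2-fold lower and 320 at least 2-fold higher. The count of higher probes thus fell more steeply than the number of probes. The normexp setting (offset 50), the background-subtracted mean and the other windows of brightness were chosen after seeing the data. The settings with the mean pixel were not run, as no such column was used here. No paired analysis was possible because each group has 1 array.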

Other observations

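Among the 3626 detected probes with a normalized control signal of at least 10000, 14 (0.386%) were at least 2-fold lower after surgery and 3 (0.0827%) at least 2-fold higher. This set was chosen after the values were seen. Besides Tmem59l it holds 3 named mRNAs. These are Sh3gl2, the synaptic vesicle protein endophilin A1, at -1.45 (9913 in control and 3613 after surgery), Sept7 at -1.30 and Gpm6b at -1.25. The named noncoding transcripts in it are uc012gtn.1, ENSMUST00000121449 at -1.49, ENSMUST00000108464 at -1.32, uc008zzg.2 of the Ywhag locus at -1.19 and NR_045328 at -1.17. A further 5 probes have no name here, the lowest of them at -2.13 with signals of 13545 and 3014, in column 162 of 164. Of the 26 detected probes at least 4-fold lower at any signal, 10 lie in the last 14 columns. Of all 44044 detected probes, 40151 lie outside these columns, so the deep falls were more frequent in them. The cause was not tested. With the median pixel before normalization, Sh3gl2, Sept7 and Gpm6b had log2 ratios of -1.38, -1.19 and -1.16. None of these values has a replicate check.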
